A study of Mus musculus with 12 samples.

Results

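The regions described here were open in macrophages at rest and after lipopolysaccharide (LPS), the endotoxin of Gram-negative bacteria, and took a higher place among the open regions of their library after 6 h of LPS. Open chromatin had been mapped by ATAC-seq, which marks accessible DNA by where a transposase can place adapters, and 1 list of peaks was deposited per library. Peaks of the 12 lists that overlapped by at least 1 bp were chained into 115231 regions, and 41745 autosomal regions were called in all 12 libraries. These are called always open below. In each library a region was given its highest percentile of −log10 q (the strength of the peak call) among all peaks of that list. A region was kept when its lowest percentile in the 4 libraries at 6 h lay above its highest in the 4 libraries at 0 h and its mean was at least 15 points higher at 6 h. The members, 5895 regions selected on these percentiles, were 14.1% of the always-open autosomal regions and 5.12% of all regions. The members were thus chosen by their percentiles at 6 h and 0 h, and the differences between these times are given as a description, with no test.

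The cells were bone marrow-derived macrophages of female C57BL/6 mice, grown for 9 days with 20% L929 supplement, a conditioned medium that carries the macrophage growth factor CSF1. They were either knockout (KO) for the long noncoding RNA lincRNA-EPS or wild type (WT), and the study's title casts this RNA as a restraint on inflammatory transcription. The 6 groups were KO and WT cells given LPS at 100 ng/ml for 0, 2 or 6 h, with 2 libraries each and 50000 cells per transposition reaction. Nothing in the labels tells whether both libraries of a group stem from different mice or dishes, so their spread may be technical. In the lists of the 4 libraries labelled 2 h the peak names give 1 h, so that time may be 1 h. The lists held 54771 to 91610 peaks. The background coverage recovered from them, a measure of relative depth, was 1.43 to 3.35 reads. KO 0 h replicate 2 had the least of both. KO 0 h replicate 1 came next in coverage, at 1.77 reads, and every other library had 2.17 or more. Coordinates are mm9, and gene annotation and sequence of that build were not used here, so the regions are named by position, without a gene, and the macrophage label was not checked against marker genes.

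LPS is sensed by macrophages through the receptor TLR4, which signals to the transcription factors NF-κB, AP-1 and the interferon regulatory factors. Many of the promoters and enhancers these factors use are already accessible at rest, where lineage factors such as PU.1 and C/EBP proteins keep nucleosomes away. Other enhancers are closed at rest and become accessible after the stimulus. The members were called in every library, at rest included, and which factors bind them was not analysed here.

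The member with the largest difference lay on chr2:121249418-121250162, a region of 745 bp. The percentiles in KO were 7.36 and 0.57 at 0 h, 46.98 and 32.5 at 2 h and 89.3 and 88.1 at 6 h. Those in WT were 12.1 and 10.8 at 0 h, 42.1 and 56.6 at 2 h and 85.8 and 88.00 at 6 h. It was thus among the weakest calls of every library at rest and above the 85th percentile of every list at 6 h. Its summit stood 11.9 ± 0.63 fold over the local background at 6 h and 4.53 ± 0.28 fold at 0 h (mean ± SD, n = 4 libraries; the fold is the authors' own value for each peak). The next was on chr3:157414375-157415148. Its KO libraries gave percentiles of 11.8 and 25.8 at 0 h, 73.1 and 70.3 at 2 h and 86.7 and 89.95 at 6 h, and its WT libraries gave 7.38 and 2.88, 34.2 and 60.8 and 83.6 and 94.8 at these times. Both KO libraries at 2 h stood above both WT libraries there. On chr9:109751775-109752720, the percentiles at 0 h were 12.2 and 39.1 in KO and 25.7 and 6.38 in WT, a wide spread, and all 4 libraries at 6 h lay between 95.8 and 98.1.

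**Figure D1:**
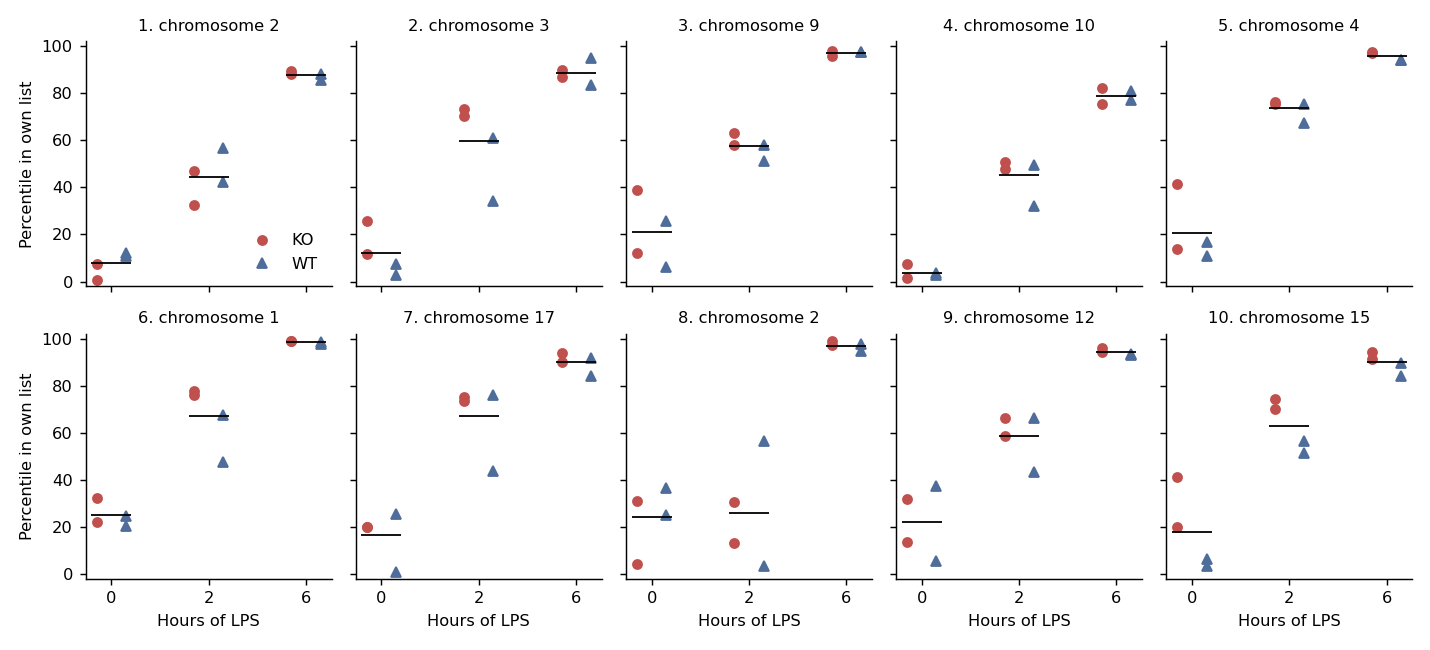
Percentile in the library's own list (y axis) against hours of LPS (x axis) for the 10 members with the largest difference in mean percentile between 6 h and 0 h, in order of that difference; the times are evenly spaced. Circles are KO and triangles WT libraries (2 of each per time), and black bars are means of 4 libraries. All libraries at 6 h stand at 75.6 or higher, and the chromosome 2 region in the eighth panel averages 25.9 at 2 h, near its 24.2 at 0 h.

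The region with the lowest start among the 10 lay on chr10:59307348-59307929. At 0 h the call stood at 1.31 and 7.60 in KO and 3.48 and 2.88 in WT libraries, at 2 h 50.8 and 47.8 in KO and 49.7 and 32.00 in WT, and at 6 h 82.3 and 75.6 in KO and 80.9 and 77.1 in WT. Its mean fold over background was 10.6 ± 0.54 at 6 h and 4.27 ± 0.46 at 0 h (± SD over 4 libraries). A region on chr4:59420489-59421207 averaged 20.7 ± 14.00 at 0 h, 73.6 ± 4.14 at 2 h and 95.7 ± 1.78 at 6 h (mean percentile ± SD, n = 4), so most of the difference was already present in the libraries labelled 2 h. Chr1:152044450-152045505 held the highest final level of the 10. The percentiles in KO were 32.4 and 22.3 at 0 h, 77.7 and 76.01 at 2 h and 98.8 and 98.99 at 6 h. Those in WT were 24.8 and 20.5 at 0 h, 67.6 and 47.8 at 2 h and 97.7 and 98.7 at 6 h. Libraries at 6 h differed there far less than those at 2 h.

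A region on chr2:57259791-57260563 differed from the rest of the 10 in its timing. Its KO libraries gave percentiles of 4.21 and 31.2 at 0 h, 30.5 and 13.2 at 2 h and 99.04 and 97.1 at 6 h, and its WT libraries gave 36.4 and 24.9, 56.3 and 3.45 and 94.6 and 97.5 at these times. The 2 h libraries overlapped those at 0 h, and all of the mean difference of 72.9 points but 1.68 lay between 2 h and 6 h. The remaining members of the 10 were on chr17:52043063-52043721, with 90.03 ± 4.17 at 6 h and 16.6 ± 10.9 at 0 h, on chr12:100618803-100619627, with 94.3 ± 1.42 and 22.2 ± 14.96 at the same times, and on chr15:95875456-95876658, with 89.9 ± 4.24 and 17.8 ± 17.3 (mean percentile ± SD, n = 4). At all 3 the 0 h libraries were spread widely. On chromosome 15 both KO libraries at 0 h (41.3 and 20.01) stood above both WT libraries (3.48 and 6.38). The SD over libraries was under 5 points at 6 h at all 10.

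The highest level at 6 h was reached on chr2:126057330-126058001. At 0 h the call stood at 57.5 and 59.4 in KO and 68.8 and 56.4 in WT libraries, at 2 h 85.6 and 88.1 in KO and 78.6 and 86.7 in WT, and at 6 h 99.8 and 99.7 in KO and 99.4 and 99.3 in WT. Its fold over background was 17.7 ± 0.78 at 6 h and 9.81 ± 1.12 at 0 h (± SD over 4 libraries). A region on chr4:125814717-125815564 reached 99.4 ± 0.15 at 6 h and had 46.4 ± 11.3 at 0 h. For 3 further regions, on chr8:55647151-55648090, chr11:44203295-44204261 and chr2:38066827-38067554, the means at 6 h were 99.4, 99.3 and 99.1, and those at 0 h 81.9, 74.03 and 83.1. Their differences were 17.5, 25.2 and 16.00 points.

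Over all members the mean percentile had a median of 45.3 at 0 h, 57.9 at 2 h and 74.9 at 6 h, against 69.2, 73.1 and 71.9 for the other always-open regions. Members were thus weak calls among always-open regions at rest and slightly above the middle of them at 6 h. The difference of 6 h over 0 h ran from 15.001 to 80.1 points, with a median of 25.9. It was 30 points or more at 2115 members, 50 or more at 271 and 70 or more at 13. By library, the members' median percentile was 77.4 and 74.1 in KO and 74.1 and 75.4 in WT at 6 h, and 48.4 and 40.01 in KO and 49.1 and 49.0 in WT at 0 h. The low value belongs to KO 0 h replicate 2, and without that library the rule, looser with fewer libraries, kept 6534 regions. At 2 h the medians were 58.8 and 59.6 in KO and 59.95 and 56.7 in WT.

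**Figure D2:**
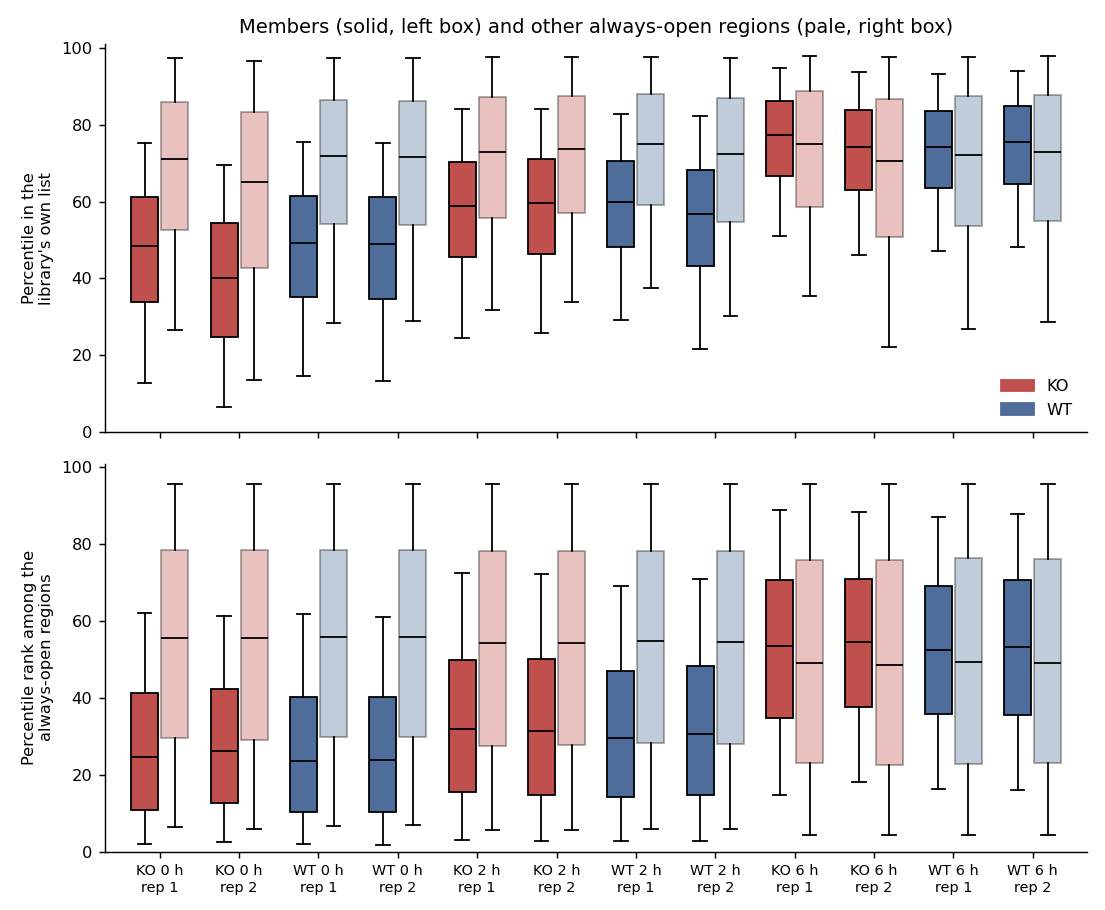
Box plots for each of the 12 libraries of the percentile in the library's own list (top) and of the rank among the 41745 always-open autosomal regions (bottom), for members (solid) and other always-open regions (pale); boxes span the quartiles, lines are medians and whiskers reach the 5th and 95th percentiles. Members' medians are 74.1 to 77.4 at 6 h and 40.01 to 49.1 at 0 h in the top panel, and 52.5 to 54.6 at 6 h and 23.7 to 26.2 at 0 h in the bottom panel.

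The length of the lists entered these values. Lists at 6 h held 78766 to 91610 peaks and those at 0 h 54771 to 67128, and a percentile depends on every peak of its list. The median difference of 6 h over 0 h was 3.96 points over all always-open autosomal regions and 2.36 over those that were not members. Each library was therefore also ranked over the same 41745 regions, where list length plays no part. On that scale the members' median difference was 22.8 points, and all 5895 had a higher mean at 6 h, against 46.0% of all always-open regions. At 3814 members (64.7%) all libraries at 6 h stayed above all at 0 h, which held for 11.4% of always-open regions. The full rule was met by 3589 members (60.9%). On this scale the rule kept 3773 regions in all, 9.04% of those always open, and 95.1% of them were members. Both scales rank the same −log10 q values of the libraries that chose the members. The members' values on this scale are thus bound to the rule and are no separate check of it.

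The balance of directions depended on the scale. By list percentile 5895 regions met the rule and 749 met its mirror image, lower at 6 h by 15 points or more with no overlap, which is 1.79% of always-open regions. By rank among the always-open regions the counts were 3773 and 3536, and the mirror image held 8.47%. Regions that ranked higher were 7.87 times as many as those that ranked lower on the list scale and 1.07 times as many on the other.

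**Figure D3:**
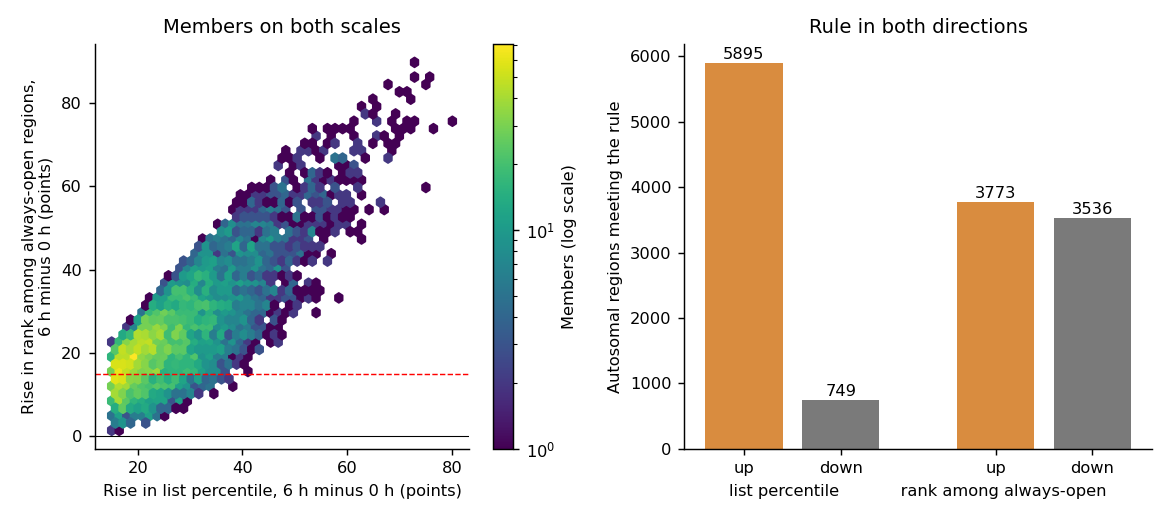
Left, the difference of 6 h over 0 h for each of the 5895 members by rank among always-open regions (y axis, points) and by list percentile (x axis, points), coloured by the number of members on a log scale; the dashed line marks 15 points. Right, the number of autosomal regions that met the rule (up) or its mirror image (down) on each scale: 5895 and 749 by list percentile, and 3773 and 3536 by rank among always-open regions.

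Other peak values moved with the rank, and they come from the same libraries and contrast. The members' median fold over background was 8.72 at 6 h and 6.60 at 0 h, while that of the other always-open regions was 7.68 and 8.14. Set against the median of all always-open regions of the same library, the members' median fold was 1.10 to 1.12 times as high in the 4 libraries at 6 h and 0.8293 to 0.8387 times in those at 0 h. The 2 h libraries lay between, at 0.911 to 0.918. At 3147 members (53.4%) this relative fold was higher in all libraries at 6 h than in all at 0 h, as it was at 8.59% of all always-open regions. The members' median summit coverage was 67 and 48 reads in KO and 53 and 52 in WT at 6 h, and 26 and 21 in KO and 31 and 31 in WT at 0 h, unscaled for depth. Over all always-open regions it was 68, 47, 54 and 52 at 6 h and 41, 32, 49 and 49 at 0 h in the same order, so the members matched the whole set at 6 h and lay below it at rest in every library. The called stretch was also longer at 6 h, with a median of 589 bp at 6 h and 436 bp at 0 h at members, and 624 and 582 bp at the other regions. It was longer at 6 h at 5780 members (98.05%) and at 70.7% of the other regions. Width and rank come from the same pile-up of reads and are not separate measures.

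Members were a smaller share of regions with a higher starting level. Of the 783 always-open regions with a mean percentile under 20 at 0 h, 357 (45.6%) were members. The share was 29.6% of 6580 regions from 20 to 40, 21.5% of 10653 from 40 to 60, 8.75% of 14856 from 60 to 85 and 0 of 8873 from 85 up. From 85 up the required difference would reach or pass the top of the scale, so that 0 was set by the rule. Below 85 the 0 h mean also entered the rule. The falling shares are therefore bound to the rule and are no separate trait of the members. A start under 20 with a mean of 80 or more at 6 h was found at 12 regions, all of them members. A difference of that size passes the limit in points by itself. At 6 h, 618 members (10.5%) averaged 90 or more, against 20.03% of the other always-open regions. At 0 h 0 had done so, since the rule did not allow it.

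Members were somewhat narrower than the other always-open regions, with a median region width of 698 and 793 bp. Their widths ran from 363 to 2662 bp. A single peak in each of the 12 libraries was found at 5133 members (87.1%), and at 83.7% of the other regions. The widest member lay on chr5:108152958-108155619. The percentiles in KO were 15.7 and 0.013 at 0 h, 36.2 and 39.6 at 2 h and 37.97 and 59.9 at 6 h. Those in WT were 10.3 and 22.4 at 0 h, 39.02 and 29.96 at 2 h and 30.8 and 47.9 at 6 h. Its libraries at 6 h were far apart and it did not meet the rule by rank among always-open regions. Another wide member, of 2178 bp on chr9:85735522-85737699, had a clearer pattern. Its KO libraries gave percentiles of 17.4 and 15.04 at 0 h, 52.8 and 56.3 at 2 h and 81.7 and 84.7 at 6 h, and its WT libraries gave 23.4 and 27.6, 32.7 and 41.7 and 74.5 and 82.4 at these times. The other 3 of the 5 widest were chr1:36612880-36615231, chr1:77510963-77513251 and chr1:179631917-179634025. Their mean percentiles were 81.9, 78.5 and 86.2 at 6 h and 66.5, 55.2 and 69.5 at 0 h, differences near the lower limit of the rule at the first and last.

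The percentiles at 2 h were not used to choose the members, but a call in every 2 h library was required. By list percentile the members' mean at 2 h lay at a median of 0.42 of the way from the 0 h mean to the 6 h mean (quartiles 0.22 and 0.62). By rank among always-open regions that position was 0.18, with a median difference of 4.15 points for 2 h over 0 h and of 18.4 points for 6 h over 2 h. Most of the difference thus lay between 2 h and 6 h on that scale. Both positions also use the values at 0 h and 6 h that chose the members, so they carry no test. On the list scale the 2 h libraries overlapped those at 0 h and lay below all those at 6 h at 2970 members (50.4%), against 12.8% of all always-open regions. They lay above all at 0 h and overlapped those at 6 h at 916 members (15.5%), against 7.97% of all. They lay between both times without overlap at 592 members (10.04%), against 1.64% of all, and overlapped both at 1417 (24.0%), against 77.6% of all. All 2 h libraries stood above all 0 h libraries at 1508 members (25.6%), against 9.61% of always-open regions, and at 706 members (11.98%) against 3.75% by rank among always-open regions. They stood below all at 6 h at 3562 members (60.4%), against 14.4%, and at 3151 (53.5%) against 11.7% by that rank. These shares are bound to the rule through the 0 h and 6 h libraries.

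**Figure D4:**
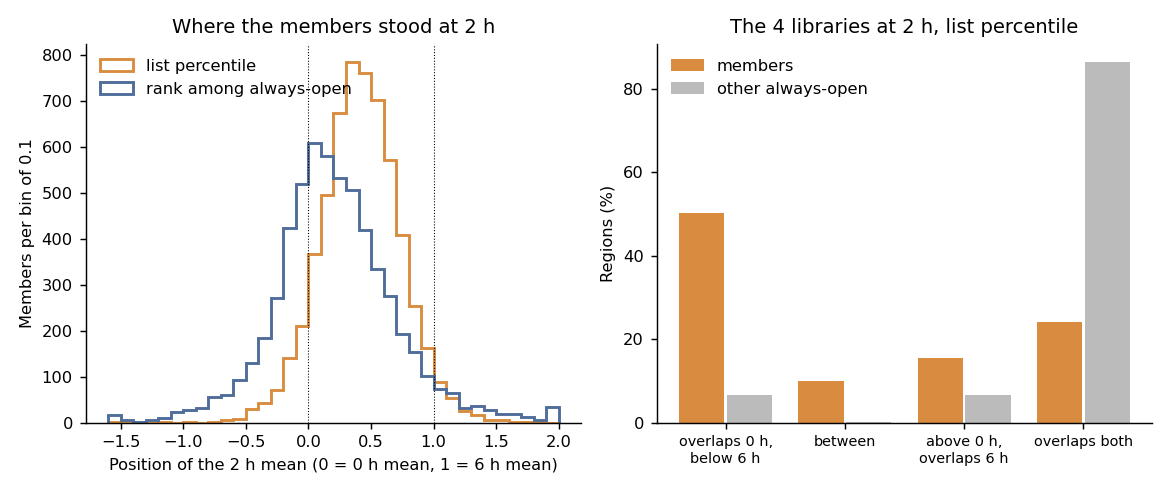
Left, number of members (y axis, bins of 0.1) by the position of their 2 h mean on the way from the 0 h mean (0) to the 6 h mean (1), by list percentile and by rank among always-open regions; ranks beyond the axis are counted in the end bins. Right, share (%) of members and of other always-open regions by how the 4 libraries at 2 h overlap those at 0 h and 6 h on the list scale; 50.4% of members overlap 0 h and lie below all at 6 h, against 6.58% of the others.

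Members with the largest difference between 2 h and 0 h were led by a region on chr12:8393155-8393942. At 0 h the call stood at 14.3 and 4.19 in KO and 42.3 and 31.4 in WT libraries, at 2 h 77.2 and 82.3 in KO and 78.05 and 72.1 in WT, and at 6 h 89.6 and 90.1 in KO and 80.3 and 91.4 in WT. All 2 h libraries stood above all at 0 h and most of the distance had been covered by then. On chr12:86854454-86855159 the means were 25.02 at 0 h, 79.4 at 2 h and 82.5 at 6 h, and on chr2:181016390-181017373 they were 9.62, 63.97 and 77.4. The chromosome 4 region at 59420489 described above also belongs to this set. The last of the 5, on chr19:5931496-5932078, stood highest at 2 h. The percentiles in KO were 7.53 and 43.05 at 0 h, 77.5 and 82.8 at 2 h and 88.2 and 71.96 at 6 h. Those in WT were 30.8 and 30.96 at 0 h, 79.8 and 82.6 at 2 h and 64.9 and 70.1 at 6 h. Its mean at 2 h lay above that at 6 h, as at 200 members (3.39%) and at 45.5% of all always-open regions.

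At the other end, 518 members (8.79%) had a lower mean at 2 h than at 0 h, as did 25.3% of the other always-open regions. By rank among always-open regions it was 1863 members (31.6%) and 56.2% of the others. A dip at 2 h was seen on chr13:112611907-112612684. Its KO libraries gave percentiles of 34.8 and 12.3 at 0 h, 7.29 and 18.8 at 2 h and 79.1 and 74.2 at 6 h, and its WT libraries gave 38.6 and 23.6, 1.20 and 0.84 and 70.7 and 74.1 at these times. Of its 4 libraries at 2 h, the highest lay above only the lowest of those at 0 h, and the 6 h libraries lay above all others. A region on chr8:48006428-48006956 had 29.1 ± 10.5 at 0 h, 5.32 ± 4.31 at 2 h and 65.2 ± 13.3 at 6 h (mean percentile ± SD, n = 4), with the WT 6 h libraries far apart at 45.3 and 70.3. The 3 others with the lowest values of 2 h over 0 h were on chr2:90743535-90744088, on chr11:31633747-31634690 and on chr3:121073258-121073808. They stood at 44.5, 57.1 and 54.2 at 0 h, at 18.2, 37.96 and 36.9 at 2 h and at 60.96, 73.2 and 72.00 at 6 h. None of these 3 met the rule by rank among always-open regions.

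KO and WT were compared at the members. The difference of 6 h over 0 h was 15 points or more in both genotypes at 4585 members (77.8%), against 2.69% of the other always-open regions, a share bound to the rule. Its median was 28.7 points in KO and 23.1 in WT, and it was larger in KO at 3990 members (67.7%), against 65.0% of all always-open regions. The median of KO minus WT was 5.21 points at members and 2.83 over all always-open regions. By rank among always-open regions the members' medians were 23.3 in KO and 23.3 in WT, and the median of KO minus WT was −0.34. Without KO 0 h replicate 2, the library with the shortest list, it was 0.88 by list percentile. The genotype difference in the size of the response thus depended on the scale and on this library. It was not tested, since the 0 h and 6 h libraries chose the members. Both KO libraries at 0 h had the lowest background coverage of all (1.77 and 1.43 reads). Genotype and depth at rest therefore cannot be told apart, also with replicate 2 left out.

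**Figure D5:**
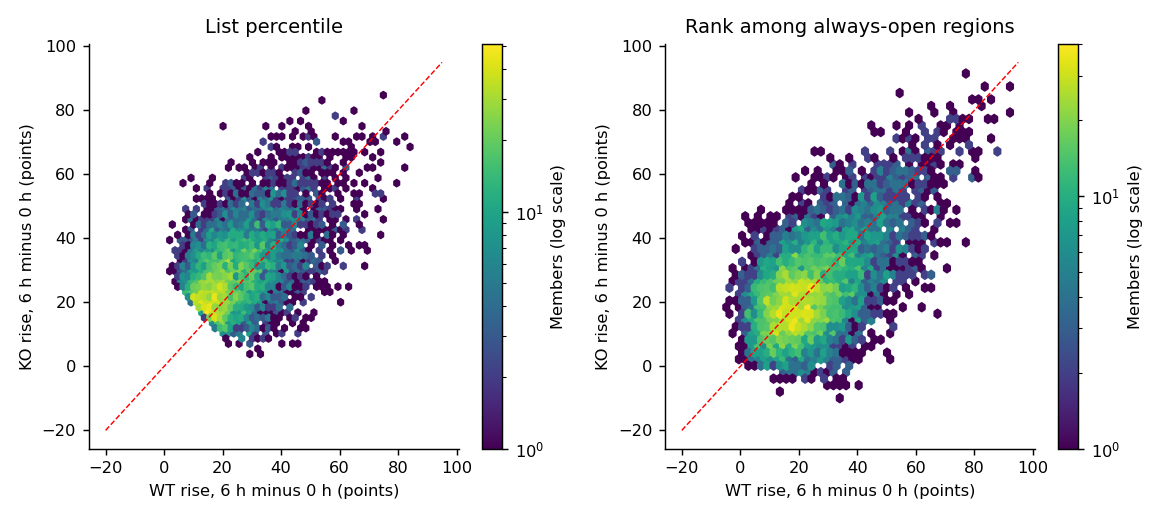
Difference of 6 h over 0 h in KO (y axis, points) and in WT (x axis, points) for the 5895 members, by list percentile (left) and by rank among always-open regions (right), coloured by the number of members on a log scale; the dashed line marks equal values. The median is 28.7 in KO and 23.1 in WT on the left, and 23.3 in both on the right.

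At 2 h, whose libraries entered the rule only through that required call, limma on normal scores of the rank among always-open regions called 0 members between KO and WT and 0 of all 41745 regions, which is 0% (Benjamini-Hochberg adjustment over all regions, threshold 0.05, 2 libraries per genotype). The lowest adjusted p from limma among members was 0.750, and it was 0.272 to 0.832 in the other fits tried. With an unadjusted p under 0.05, limma found 593 members (10.1%), 367 higher and 226 lower in KO, and 5.81% of all always-open regions. More were also higher with untransformed ranks (405 and 214), a replicate block (400 and 252) and a fit on all 12 libraries (298 and 190). On normal scores of the fold the members were nearly even, at 269 higher and 260 lower. Without KO 2 h replicate 1, which left 1 KO library at 2 h, more were lower than higher. The lean towards KO thus depended on the measure and on this library. Both KO libraries stood above both WT libraries at 1184 members (20.1%) and below both at 880 (14.9%), against 16.5% and 17.6% of always-open regions. By rank among always-open regions the counts were 1282 (21.7%) and 851 (14.4%), against 17.8% and 17.6%. The median difference of KO minus WT at members was 0.91 points by list percentile at 2 h.

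At 6 h and 0 h, as at 2 h, the same comparison gave shares within a few points of those of all always-open regions. By list percentile at 6 h, both KO libraries stood above both WT libraries at 1217 members (20.6%) and below at 742 (12.6%), against 18.1% and 14.5% of always-open regions. At 0 h they stood above at 551 members (9.35%) and below at 1565 (26.5%), against 8.97% and 27.4%. Both KO libraries at 0 h were shallow. By rank among always-open regions they stood above at 1168 members (19.8%) and below at 870 (14.8%) at 6 h, against 17.1% and 17.4%. On that scale at 0 h it was 1206 (20.5%) and 870 (14.8%), against 17.8% and 17.3%. By that rank the members' share above was larger, and that below smaller, than over all always-open regions at each time, rest included. This lean towards KO was not tested at 6 h and 0 h.

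Regions picked in one genotype were followed in the other, whose percentiles had no part in picking them. These sets overlap the members but are not the members, and their values are no test of the members. The rule was applied to the 4 WT libraries at 6 h and 0 h alone, a step added after the data were examined, and kept 6978 always-open regions, 4874 of them members. By rank among always-open regions, both KO libraries at 6 h stood above both at 0 h at 4353 of these (62.4%), against 24.9% of all always-open regions. In the KO libraries alone, limma called 428 of the 6978 (6.13%) higher at 6 h and 1 lower (adjusted p threshold 0.05, 2 libraries per time). Over all always-open regions it called 453 (1.09%) higher and 200 lower. The other way round, the KO libraries alone kept 10300 regions, 5606 of them members. Both WT libraries at 6 h stood above both at 0 h at 5642 of these (54.8%), against 25.4% of all always-open regions. In WT, limma called 1101 of the 10300 (10.7%) higher and 12 lower. Over all always-open regions it called 1200 (2.87%) higher and 745 lower. These counts depended strongly on which library was left out, at 6 h or at 0 h. Each such fit set 1 library against 2, so it cannot show whether the counts are stable. With untransformed ranks the count was 0 in KO and 479 in WT. It was 1168 in KO with a replicate block, although the replicate numbers did not pair the libraries, and 446 in WT on normal scores of the fold. Over the same regions without a threshold, 84.7% of those chosen in WT had a higher mean score at 6 h in KO, and 79.5% of those chosen in KO did so in WT, against 46.8% and 47.4% of all always-open regions.

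Members were spread over the genome. They made up 11.9% to 16.1% of the always-open regions of each of the 19 autosomes, lowest on chromosome 11 (335 of 2825) and highest on chromosome 16 (247 of 1533). The next always-open region along the chromosome was a member for 17.1% of members and 13.6% of other regions. Where that next region lay within 10 kb the shares were 14.1% and 13.0%. Joining neighbouring members with no other always-open region between them and gaps of up to 10 kb left 5326 members alone, and 569 (9.65%) in 276 runs of 2 or 3. The 17 runs of 3 were led, by mean difference, by one of 11.5 kb on chromosome 7 at 135453718 to 135465236, whose members had 18.9 to 47.2 points. The next was on chromosome 11 at 94114908 to 94127200, with 22.6 to 40.3 points. No longer run was found.

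Members were set beside regions that were new at 6 h, with no test of the difference. Autosomal regions with a call in every 6 h library and in no 0 h library numbered 6198. One lay within 5 kb of 356 members (6.04%) and of 6.25% of the other always-open regions, so members were not the closer ones at that distance. Within 10 kb the shares were 12.9% of members and 11.4% of the others, and within 50 kb 42.9% and 38.8%. Among members, the share with one within 10 kb was 12.1% of 3780 whose difference was under 30 points, 14.0% of 1844 from 30 to 50 points and 17.0% of 271 from 50 points up. The median distance was 65229 bp for members and 75320.5 bp for the others.

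Just inside the limit of 15 points, the 3 members with the smallest differences lay on chr9:107546806-107547340, on chr11:46301692-46302624 and on chr3:88451744-88452458, with means of 57.2, 47.9 and 77.5 at 6 h and 42.2, 32.9 and 62.5 at 0 h. Just outside it, without overlap between the times, were regions on chr1:62529541-62530244, on chr1:63704558-63705034 and on chr17:5429323-5429916, with 96.03, 35.5 and 70.6 at 6 h and 81.03, 20.5 and 55.6 at 0 h. Of these, the first met the rule by rank among always-open regions, where its difference was 21.1 points, and the 3 inside did not, with 6.12, 2.66 and 11.9. Regions without overlap numbered 9009, 21.6% of those always open, of which 3114 fell short of 15 points.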

How the data were processed

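ATAC-seq was done on KO and WT macrophages at 0, 2 and 6 h of LPS, 2 libraries per group. The submitters' processing notes name mm9, Bowtie2 2.1.0, MACS2 and Picard. How duplicates and the Tn5 offset were treated, and with which peak calling options, is not stated there. Peak names in each deposited list name 1 library. The deposited columns are a fold ratio (summit against background), the −log10 of p-values and of q-values, a score of 10 times the −log10 q, and the other value, the summit position. All are the authors' own values. No sequence or gene annotation of mm9 was used, so the planned gene lists, motifs and markers were not run.

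Members were found by the rule given above, with percentiles over all peaks of a list, X included. Ranks over the 41745 always-open autosomal regions (highest −log10 q in the region) served as a scale free of list length. The members and tests were chosen with earlier results of these data known. Regions named are the 10 with the largest difference, the 5 with the highest mean at 6 h, the 5 with the largest and the 5 with the smallest difference between 2 h and 0 h, the 5 widest, and 3 on each side of the limit; the runs were chosen after their values were seen. Tests used limma 3.58.1 (R 4.3.3) on normal scores of the rank. The fit at 2 h was also run on simulated data with the same noise level in all regions. That run cannot show how the fit behaves where the spread differs between regions. Python 3.11.15, numpy 2.4.6, pandas 2.3.3 and scipy 1.17.1 were used. Background coverage was recovered by solving the deposited fold and p for a whole-number coverage, which matched p within 0.001 for 100% of peaks. Read totals are unknown, and peak values carry no counting interval. Alternatives were list length, the limit in points, the fold in place of q, a minimum −log10 q of 5, 100 bp of overlap, the mean over peaks, a replicate block and each library left out.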

Additional observations from a re-analysis of the deposited data

Results flagged for a closer look

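Within the 4 libraries of a time, 10 of 120 sets of values tested held 1 library far from the other 3 by Dixon's criterion. Chance gives this for about 1 set in 20 where the values are independent, normal and from 1 population. The sets here pool KO and WT, and many are regions named for their extreme values. The count of 10 therefore cannot be read against that rate. KO 0 h replicate 2 had 54771 peaks, against 65506 to 67128 in the other libraries at 0 h. Its median percentile over the members was 40.01, against 48.4 to 49.1. Both values bear on the list scale; by rank among always-open regions its median of 26.2 was not set apart in this way.

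Single regions had such a library at each time. At 0 h, WT replicate 2 stood at 62.2 at the chromosome 1 region at 77510963, with the next library at 53.4. WT 2 h replicate 2 stood low, at 32.0 with the next at 47.8, at the chromosome 10 region at 59307348, and at 43.7 with the next at 73.4 at the chromosome 17 region at 52043063. WT 2 h replicate 1 was low at the chromosome 4 region at 59420489, at 67.4 with the next at 75.4. In libraries at 6 h, WT replicate 1 was the low one at 3 regions: 80.3 with the next at 89.6 on chromosome 12 at 8393155, 45.3 with the next at 70.3 on chromosome 8 at 48006428, and 72.5 with the next at 78.8 on chromosome 3 at 88451744. KO 6 h replicate 2 was low on chromosome 2 at 38066827, at 98.4 with the next at 99.3.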

How the results depend on the processing

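The count of 5895 members was 3773 by rank among always-open regions and 10300 by the KO libraries alone, and stayed within 1.5 times under the other 19 settings, which include limits of 10 and 20 points (7303 and 4469), ranking on the fold (4126, of which 3732 are members) and each library left out (5914 to 7098). Leaving out a library loosens the rule, since fewer values must stay apart and fewer calls are required. Those counts therefore lean upward by construction and say little about stability. The 2 h position of 0.42 was 0.18 by rank among always-open regions and 0.36 to 0.44 with each library left out, lowest without KO 0 h replicate 2. The KO minus WT difference of 5.21 points reversed to −0.34 by rank among always-open regions and was 0.88 to 8.71 with each library left out. In the limma fit between KO and WT at 2 h, 0 members were called in every fit tried, the replicate block included (lowest adjusted p = 0.644 with the block). The settings for regions chosen in 1 genotype, and the rule in KO or WT alone, were added after seeing the data. The 428 regions chosen in WT and called higher in KO were 0 with untransformed ranks, 1168 with a replicate block and 0 to 695 with each library left out. The 1101 chosen in KO and called higher in WT were 479 with untransformed ranks, 446 with the fold and 0 to 817 with each library left out; with 1 left out, 1 library stood alone at its time. The cause of these moves was not tested, apart from list length, which ranks over the same regions remove by construction. Replicate numbers are shared in the labels but did not pair the libraries: the correlation of same-numbered deviations was −0.0142 to 0.0254 over pairs of groups. Read totals are not stated for these lists, so the precision that depth gives each rank was not estimated. Among weak calls the ranks were coarse. In KO 0 h replicate 2, folds of 5.36, 5.77 and 6.18 at named regions stood at percentiles 13.7, 20.0 and 25.8. Small changes in summit coverage there could thus move a call by several points, against a limit of 15.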

Other observations

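The rule left out the X chromosome. Of the 1066 X chromosome regions called in all 12 libraries, 162 (15.2%) met its other conditions, against 14.1% of the always-open autosomal regions.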
